A study of Drosophila melanogaster with 10 samples.

Results

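Drosophila melanogaster embryos of 2 wild-type laboratory strains, yw and w1118, were compared on Affymetrix DrosGenome1 arrays. The comparison used 6 of the 10 arrays of the series: 2 of yw (1 irradiated, 1 control) against 4 of w1118 (2 irradiated, 2 control). All 13966 probe sets that are not Affymetrix controls were considered, and the 8379 with a mean signal above 53.36 were tested. The yw irradiated embryos and the w1118 irradiated embryos received 40 Gy of gamma radiation, and the controls of both strains were mock-treated. In every group about 1 g of eggs was gathered over a window of 2.5 h, kept for another 2.5 h at 25 °C, treated, and left for 1.5 h before RNA was taken. The remaining 4 arrays came from Dmp53NS, the labels' name for the p53 mutant (2 irradiated, 2 control), and enter here for the spread between arrays and as values beside those of the wild types. The labels give no alleles beyond the strain names, and whole embryos were pooled, so that fewer cells of a type and less RNA per cell cannot be told apart.

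Both strains are standard backgrounds of fly genetics. In the usual notation y is yellow, a gene for dark cuticle pigment, and w is white, a transporter subunit that brings pigment precursors into the eye. w1118 carries a null allele of white, and a y w stock carries mutations of both genes. Laboratory stocks also differ at many other loci, in mobile elements and in microbial load. At the age sampled, embryos have completed gastrulation and are in germ band extension, when neuroblasts form and most patterning genes are active.

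The yw arrays stood apart from the w1118 arrays in how they were run. Per the run records, both yw arrays were hybridized on a day of their own, with a chip batch and a fluidics protocol of their own. The w1118 arrays were hybridized on the other 2 days, each day with 1 set (its irradiated and its control embryos), beside 1 Dmp53NS set. Strain and hybridization day therefore cannot be told apart in any value below. The median signal was 102 and 108 in yw and 69.25 to 81.7 in w1118, although each array had the same trimmed mean of 250.04. Signals under 20 made up 16.85% and 15.97% of probe sets in yw (irradiated, control), against 25.5% to 29% in w1118. Log2 signals correlated across probe sets at 0.799 to 0.836 between yw and w1118 arrays, and at 0.873 to 0.903 between w1118 arrays of different sets. Between Dmp53NS and w1118 arrays the range was 0.784 to 0.922, so correlations this low were not particular to yw. Within sets the correlation was 0.898 for yw, and 0.942 and 0.963 for w1118. For eIF-4a, the signal at the 3′ end over that at the 5′ end, a sign of RNA or cRNA length, was 2.28 and 1.56 in yw. In w1118 it was 1.95, 2.13 and 2.92, and 12.2 for the irradiated embryos of the second set.

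A signal difference between the strains was called for 484 of the 8379 probe sets (5.78%). Of these, 251 were higher in yw (3%) and 233 were lower in yw (2.78%). The calls rest on limma with Benjamini-Hochberg adjustment at 0.05, on log2(signal + 14.6), so that folds of dim probe sets are understated. At the 484 called probe sets both yw arrays lay outside the range of the 4 w1118 arrays, as they did at 42.6% of all probe sets tested (23.5% above and 19.1% below). The filter uses the mean over all 10 arrays, so a probe set can pass it through its yw signals alone. Of the 8379, 448 did so (mean over the other 8 arrays at or below 53.36), among them 59 of the 251 higher calls and 0 of the lower ones. An unadjusted p under 0.05 was reached by 2197 probe sets, where 419 would be reached by chance. The split of higher and lower calls moved with the scaling. Quantile normalization gave 291 higher and 405 lower calls, and median centring gave 89 higher and 494 lower, against a median of all differences of 0.01 log2 as deposited, -0.08 after quantile normalization and -0.39 after median centring. With both the deposited scaling and quantile normalization, 433 probe sets were called with the same sign, 210 higher and 223 lower. The count was 992 with no replicate block in the model, 231 with the 6 wild-type arrays alone, and 43 to 488 when single arrays or sets were left out (43 and 60 without the irradiated and the control yw array). With 1 yw set, the spread between sets comes from the w1118 and Dmp53NS sets.

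A large share of the higher calls came from a single run of 302 consecutively numbered probe sets, which was noticed in the data. Of the 137 probe sets of this run that were tested, 68 were higher in yw (49.6%) and 0 were lower, and 135 had a positive difference. Their median difference was 1.82 log2, and it was 1.70 after quantile normalization. Of the 137, 59 passed the filter only through the yw arrays. Among the other 78, 39 were called higher, 76 were positive and the median was 1.51 log2. Over all 302 without a filter, 288 were positive at a median of 1.29 log2, beside 64.2% positive and a median of 0.28 log2 over all 13966 probe sets. The median signal of the run was 119 and 99 on the yw arrays, against 27.7 to 32 on the w1118 arrays, and 24.75 to 30.45 on the Dmp53NS arrays. The 2 yw arrays were thus both far above all other arrays of the series in this run.

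**Figure D1:**
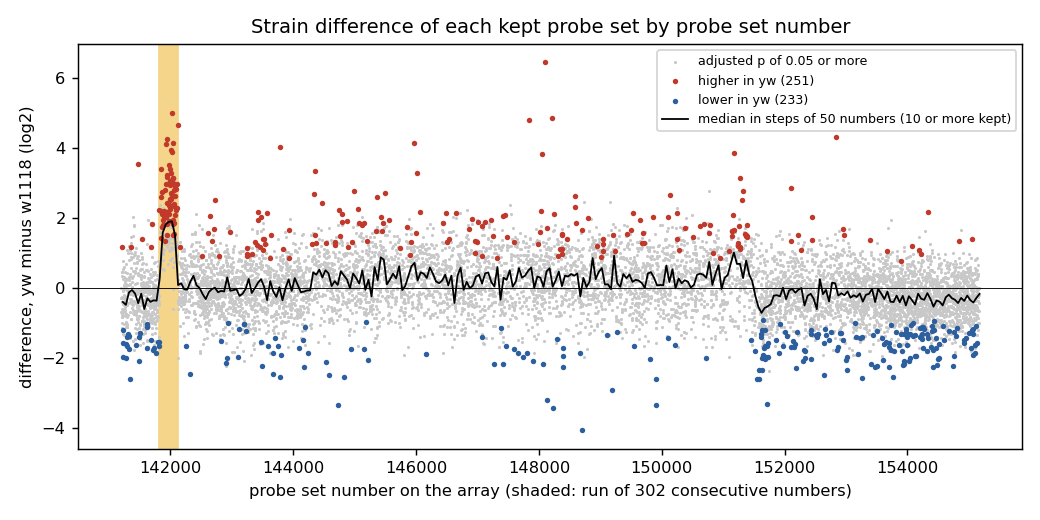
Each point is 1 of the 8379 tested probe sets, with its number on the array on the horizontal axis and its yw minus w1118 difference (log2) on the vertical axis. Red points are the 251 called higher in yw, blue points the 233 called lower, and the black line is the median in steps of 50 numbers. In the shaded run of 302 consecutive numbers the line rises to about the median of 1.82, and it lies above 0 over most of the middle of the numbering and below 0 at its start and end.

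Many genes of the run have a further probe set elsewhere on the array, and those did not differ in the same way. Among the 243 probe sets of the run with 1 gene symbol, 234 had such a partner, and 96 pairs had both probe sets tested. In these 96 pairs the median difference was 1.85 log2 for the probe set in the run and -0.07 log2 for its partner. With its sign, the yw minus w1118 difference was higher at the probe set in the run than at its partner in 95 of 96 pairs. In the 51 pairs whose probe set in the run was called higher, 1 partner was called higher too. That gene is CNBP, which codes for a zinc finger nucleic acid binding protein, with 4.27 log2 in the run and 0.93 log2 at its partner. borr, the borealin subunit of the chromosomal passenger complex, differed by 4.14 log2 in the run (1940 and 2938 on yw arrays, 50.7 to 208 on w1118 arrays). Its partner differed by 0.07 log2, with 4036 and 4280 on yw arrays and 3285 to 4648 on w1118 arrays. Dref, a DNA replication-related transcription factor, differed by 3.28 and 0.04 log2, RPA1, a single-stranded DNA binding subunit, by 3.17 and -0.60 log2, and the helicase Hel25E by 3.05 and -0.18 log2, in the run and at the partner in that order. Fitted without the run, 326 of 8242 probe sets were called (3.96%), 132 higher in yw (1.6%) and 194 lower (2.35%). The same fit after quantile normalization gave 190 higher and 370 lower. In what follows 1 probe set, that with the highest mean signal, stands for each gene. Over the 6848 genes so represented 324 were called (4.73%): 131 were higher in yw (1.91%) and 193 were lower (2.82%).

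**Figure D2:**
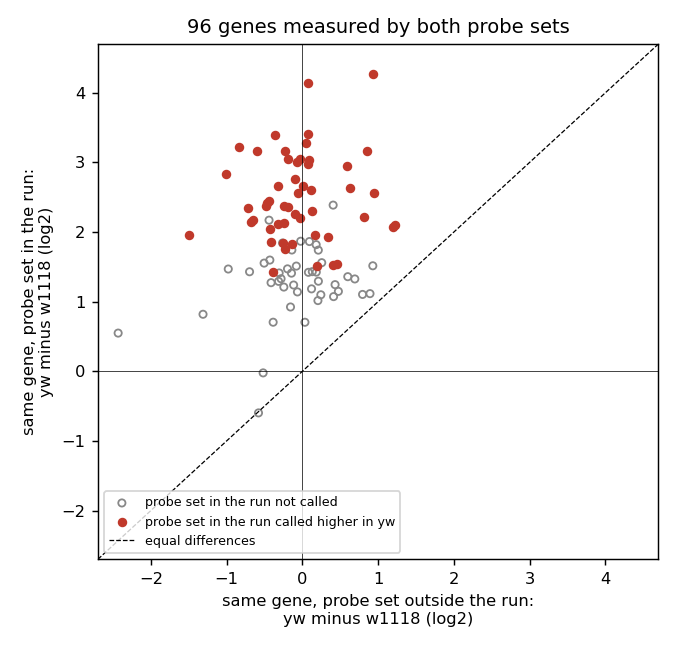
Each point is 1 of 96 genes with a tested probe set in the run of 302 (vertical axis) and another outside it (horizontal axis), both as yw minus w1118 differences in log2. Filled points are the 51 genes called higher in yw in the run. All points but 1 lie above the dashed line of equal differences, and the points scatter around 0 on the horizontal axis, with medians of 1.85 and -0.07.

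Outside the run, the difference also varied with signal level and with the position in the numbering. In 5 equal groups of the probe sets by mean signal, from dim to bright, the median difference was 0.41, 0.13, -0.11, -0.18 and -0.14 log2, and 0.04, -0.12, -0.20, -0.11 and -0.07 log2 after quantile normalization. The probe sets numbered before the run had a median of -0.32 log2 (6 higher, 25 lower), and those directly after it one of -0.03 log2 (31 higher, 20 lower). The 3597 tested probe sets of the long middle stretch had a median of 0.29 log2, with 128 higher and 44 lower. The 2886 of the last stretch had a median of -0.26 log2, with 18 higher and 144 lower. The part of these 2 dependences in the calls for single genes was not tested.

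Among named genes, the largest differences were taken where both yw arrays lay on 1 side of all w1118 arrays. The lack of overlap with w1118 is therefore fixed by the choice. Of the 20 largest higher ones, 8 passed the filter only through yw: Drsl5, Ir64a, Cyp4p1, CG12723, CG13377, Rsph3, CG15572 and CG32305. The greatest was that of Drsl5 (148103_at, arm 3L), a member of the drosomycin family of antifungal peptides. Its signal was 3842 and 2292 on the irradiated and control yw arrays, 31.6 to 46 on the Dmp53NS arrays, and 5.9, 50.9, 5.3 and 36.4 on the w1118 arrays. The yw arrays were thus above all others, by 6.45 log2 against w1118 (SE 0.55, limma adjusted p = 0.000684). Ir64a (148219_at, 3L), an ionotropic receptor of acid-sensing olfactory neurons, read 614 and 455 on yw arrays, against 3.7, 6.6, 3 and 2.9 on w1118 arrays. All 4 w1118 values were near the bottom of the scale, and the difference was 4.87 log2 (SE 0.50, limma adjusted p = 0.00111).

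The cytochrome P450 genes Cyp4p1 and Cyp4p2, which neighbour each other on arm 2R, were both higher in yw. P450 enzymes oxidize lipids, hormones and foreign compounds. Cyp4p2 (152833_at) read 1497 and 1242 on yw arrays, 397 to 656 on Dmp53NS arrays, and 17, 64.1, 84.4 and 78.2 on w1118 arrays. The 3 strains did not overlap, and the yw minus w1118 difference was 4.32 log2 (SE 0.46, limma adjusted p = 0.00111). Cyp4p1 (143782_at) read 462 and 177.8 on yw arrays, 30.8 to 49.8 on Dmp53NS arrays, and 2.6 to 5.5 on w1118 arrays, a yw minus w1118 difference of 4.03 log2 (SE 0.52). It showed the same order of the 3 strains.

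The largest higher differences also held kek1 and kek5, which code for transmembrane proteins with leucine-rich repeats and an immunoglobulin domain. The related kek2, kek3, kek4 and kek6 did not pass the filter and were not tested. kek1 (141473_at, 2L), an inhibitor of the EGF receptor, read 323 and 407 on yw arrays, against 19.5, 8.8, 31.7 and 14 on w1118 arrays, a difference of 3.56 log2 (SE 0.45, limma adjusted p = 0.00239). kek5 (145366_at, X) read 393 and 463 on yw arrays and 10.3 to 119 on w1118 arrays, a difference of 2.61 log2 (SE 0.62). The w1118 arrays spanned a wide range for kek5, and the yw arrays were above all of them by the rule that chose it.

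The other genes among the 20 largest higher differences lay between 2.21 and 4.16 log2. They included the chemosensory gene Gr8a, a gustatory receptor (185 and 447 on yw arrays, 36 to 60.2 on w1118 arrays, 2.23 log2). Rsph3, a radial spoke protein of motile cilia and sperm tails, differed by 2.51 log2. Without an assigned function here were CG13794 (4.16 log2), CG13361 (3.35), CG14275 (described below), CG9119 (2.86), CG12723 (2.79), CG13377 (2.68), CG33272 (2.62), CG15572 (2.45), CG13403 (2.27) and CG32305 (2.21). CG33272 is read by a probe set of a type that several members of a gene family can share. The final 2, Uba2, a subunit of the SUMO-activating enzyme (2.53 log2), and 7B2, a secreted helper of a neuropeptide convertase (2.24 log2), have their probe sets in the run of 302. A probe set with no symbol here, 147836_at, chosen after its values were seen, read 2549 and 3286 on yw arrays and 52.4 to 138 on w1118 arrays, a difference of 4.80 log2.

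The lower differences were led by CG14111 (148703_at, 3L), which read 23.7 and 55.6 on yw arrays, 94.1 to 217 on Dmp53NS arrays, and 910, 948, 923 and 645 on w1118 arrays. The yw minus w1118 difference was -4.05 log2 (SE 0.44, limma adjusted p = 0.00122), with no overlap of any 2 strains. Tektin-C (148236_at, 3L), a filament protein of sperm tails and cilia, read 4.6 and 11 on yw arrays, against 237, 231.5, 195.5 and 221 on w1118 arrays. The yw arrays were at the bottom of the scale and the w1118 arrays close together, for a difference of -3.41 log2 (SE 0.46, limma adjusted p = 0.00346). On the Dmp53NS arrays Tektin-C read 2.7 to 5.9.

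The next genes, fend and CG8066, did not differ in this way between w1118 and the mutant. fend (144730_at, X) read 21.1 and 35.6 on yw arrays, 273 to 421 on Dmp53NS arrays, and 437, 380, 415 and 420 on w1118 arrays, a yw minus w1118 difference of -3.33 log2 (SE 0.33, limma adjusted p = 0.000889). The w1118 and Dmp53NS arrays overlapped, and both yw arrays were below them. CG8066 (149906_i_at, 3R) read 7.3 and 76.6 on yw arrays and 364 to 524 on w1118 arrays, -3.33 log2 (SE 0.47). Its second probe set was called lower too, at -2.60 log2.

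The remaining 16 of the 20 largest lower differences lay between -3.17 and -2.24 log2 and spread over many functions. CG14985 differed by -3.17 log2, with 263 and 42.3 on yw arrays and 969 to 1396 on w1118 arrays. At the cell cortex and membranes were sktl, a kinase that makes phosphatidylinositol bisphosphate (-2.59 log2), pyd, the fly ZO-1 protein of adherens junctions (-2.24), smash, a junctional LIM protein (-2.33), and GAPcenA, a GTPase-activating protein (-2.26). Mitochondrial genes were Marf, the fly mitofusin (-2.55 log2), and Slc25A46a, a mitochondrial carrier relative (-2.47). In cell division and chromatin were Cdc27, a subunit of the anaphase-promoting complex (-2.53 log2), Set8, a methyltransferase of lysine 20 of histone H4 (-2.33, and -1.99 at its second probe set, also called), and e(y)3, a subunit of a SWI/SNF remodeller (-2.25). In signalling and development were insc, the adaptor that orients the neuroblast spindle (-2.46 log2), Keap1, the inhibitor of the oxidative stress factor Cnc (-2.27), miple1, a midkine-like secreted protein (-2.24), and noc, a zinc finger protein (-2.24). BTBD9 (-2.52 log2) and CG10859 (-2.43 log2) complete the group. pyd read 515 and 349 on yw arrays, against 2784, 2926, 1127 and 1942 on w1118 arrays, so a bright gene was among them. The second probe sets of pyd (-1.20 log2, limma adjusted p = 0.224) and smash (-0.89 log2, limma adjusted p = 0.633) were not called.

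**Figure D3:**
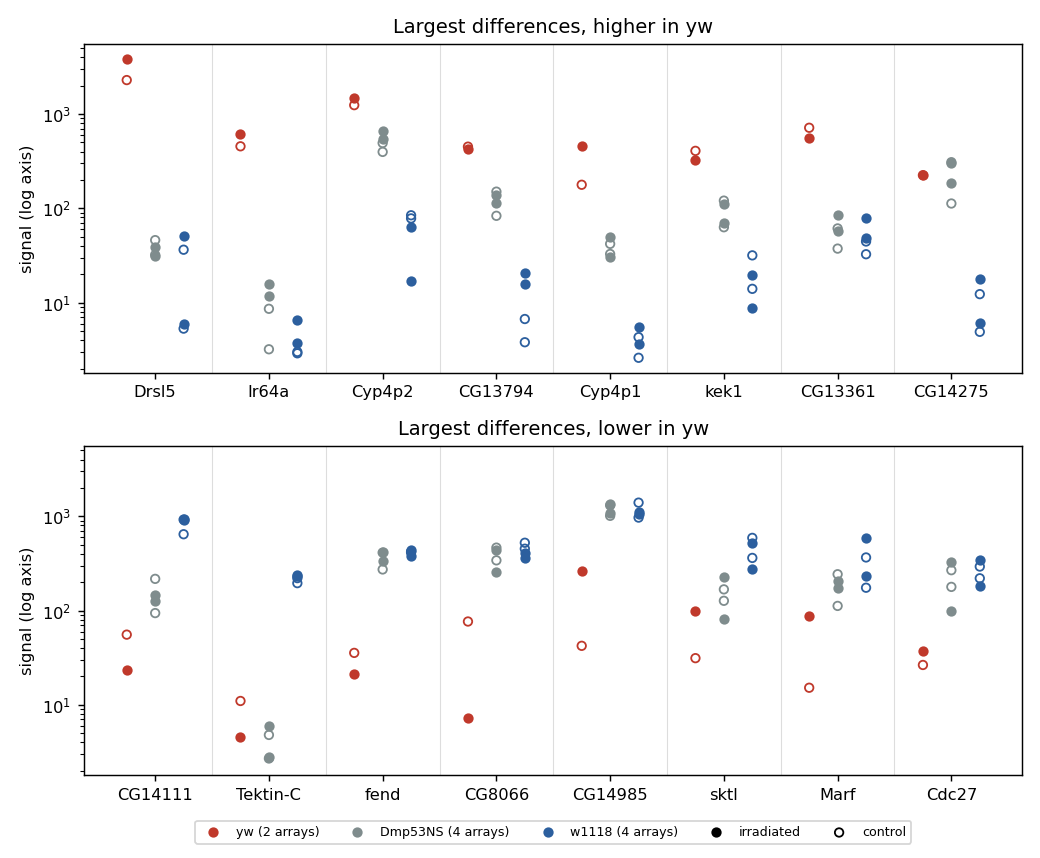
Signal per array (log axis) of the 8 genes with the largest higher differences outside the run of 302 and the 8 with the largest lower differences. Red points are yw, grey points Dmp53NS and blue points w1118, with filled symbols for irradiated and open symbols for control arrays. The 2 yw arrays lie outside the w1118 range for all 16 genes by the rule that chose them. The Dmp53NS arrays lie near yw for Tektin-C and CG14275 and near w1118 for fend, CG8066 and CG14985.

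Genes tied to the strain names or to the mutant were read whether or not they were called. The y probe set (143416_at) read 151 and 24.5 on yw arrays and 44.4, 42.5, 108.5 and 61.3 on w1118 arrays. The w1118 arrays lay between the 2 yw arrays, and the difference was 0.10 log2 (SE 0.68, limma adjusted p = 0.942) with a 95% interval of -1.40 to 1.61, so it was not resolved. It was negative after quantile normalization (-0.27 log2). Of the 25 measured genes at the end of X that holds y, 2 were called. CG13377 was higher in yw at 2.68 log2 and spdi was lower at -1.23 log2, while ac (-0.56 log2) and sc (0.42 log2), the proneural genes next to y, were not called. No probe set named w was analysed here. ry, the xanthine dehydrogenase gene, read 169 and 87.4 on yw arrays, 2 to 10.6 on Dmp53NS arrays, and 78.5 to 138 on w1118 arrays. Its yw minus w1118 difference was 0.21 log2 (SE 0.49, limma adjusted p = 0.822), and it turned negative after quantile normalization (-0.11 log2) and median centring (-0.18 log2). p53 (150416_at) read 505 and 243 on yw arrays and 233 to 499 on w1118 arrays, a difference of 0.19 log2 (SE 0.42, limma adjusted p = 0.809) that was -0.21 log2 after median centring.

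For several called genes the Dmp53NS arrays, which share their hybridization days with the w1118 arrays, lay nearer to yw than to w1118. These genes were picked after their values were seen. Spp, the signal peptide peptidase, read 2792 and 3388 on yw arrays, 2107 to 2292 on Dmp53NS arrays, and 784, 731, 940 and 1002 on w1118 arrays. The w1118 arrays were lowest without overlap, at a yw minus w1118 difference of 1.83 log2 (SE 0.22, limma adjusted p = 0.00212). CG14275 read 226 and 225 on yw arrays, 112.5 to 308.5 on Dmp53NS arrays, and 4.9 to 17.6 on w1118 arrays. Eip63E, a cyclin-dependent kinase gene, read 342 and 352 on yw arrays, 471 to 981 on Dmp53NS arrays, and 39.7 to 84.8 on w1118 arrays, a yw minus w1118 difference of 2.14 log2. Among genes lower in yw, GstE11, a glutathione transferase, read 44.7 and 30.1 on yw arrays, 15.9 to 26.1 on Dmp53NS arrays, and 172 to 355 on w1118 arrays (-2.20 log2). Try29F, a trypsin-like protease, read 48.2 and 42.7 on yw arrays, 15.2 to 26.8 on Dmp53NS arrays, and 165 to 260 on w1118 arrays (-1.89 log2). In these genes w1118 stood apart from the arrays of the other 2 strains. The share of all called genes with this pattern is not given here, and fend and CG8066 above did not show it. The parts of strain and of hybridization day were not tested. The yw and mutant comparisons share the w1118 arrays.

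Genes were also read by function, over 32 lists with 508 measured genes, beside a median of -0.02 log2 over all 6848 genes. Of all these genes 1.91% were called higher in yw and 2.82% lower, the shares that stand beside each list count below. Median centring shifts all genes alike, so it left the list medians relative to that of all genes as they were with the deposited scaling. Of the antimicrobial and immune effectors, peptides and enzymes that act on microbes together with their regulators, 4 of 13 measured genes (of 32 on the array) were higher in yw and 0 were lower. Drsl5 passed the filter only through yw, and of the other 12 genes 3 were higher. Their median was 0.81 log2 (0.80 after quantile normalization), and 12 of 13 differences were positive. Beside Drsl5 these were DptB, a diptericin (476 and 445 on yw arrays, 98.4 to 211 on w1118 arrays, 1.47 log2), and the lysozymes LysS (1095 and 741 on yw arrays, 146 to 285 on w1118 arrays, 2.02 log2) and LysB (1.17 log2). LysB is read by a probe set that related lysozymes can share. The recognition proteins PGRP-SC2 (0.81 log2), PGRP-LB (0.84) and PGRP-LE (0.85) and the NF-kappaB factor Rel (-0.54) did not pass.

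Among cytochrome P450 genes 3 of 18 measured (of 73 on the array) were higher in yw and 0 were lower, with a median of 0.49 log2 (0.17 after quantile normalization). Of the 18, 2 passed the filter only through yw, Cyp4p1 among them, and of the other 16 genes 2 were higher, at a median of 0.37 log2. Besides Cyp4p1 and Cyp4p2, the called gene was Cyp4e2, with 921 and 551 on yw arrays and 212 to 506 on w1118 arrays (1.19 log2). Of 25 glutathione transferases, which conjugate toxic compounds, 0 were higher and 2 were lower in yw, at a median of 0.23 log2. These were GstE11 and GstZ1 (-1.65 log2). Of 9 oxidative stress genes, Keap1 was lower. Among 12 chaperones, Hsc70-3, the BiP chaperone of the endoplasmic reticulum, was higher (1.18 log2), on a probe set that family members can share, and was not called after quantile normalization (1.15 log2, limma adjusted p = 0.0551). Hsc70-4, the main cytosolic Hsc70, was lower, with 3688 and 4351 on yw arrays and 7034 to 9723 on w1118 arrays (-1.02 log2). The list median was -0.30 log2.

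All 28 measured genes of cytosolic ribosomal proteins had a positive difference as deposited, with a median of 0.71 log2 and 8 called higher, but after quantile normalization the median was -0.01 log2 and 0 were called by limma (1 at an unadjusted p under 0.05). All but RpS10a, 27 of the 28, were in the brightest of the 5 groups by mean signal. RpLP1, an acidic stalk protein, read 37027 and 44144 on yw arrays and 14737 to 24382 on w1118 arrays (1.15 log2 as deposited, 0.25 after quantile normalization). The highest signal of an array was 38664 and 50802 in yw, against 18467 to 30992 in w1118. Obp99a, an odorant binding protein of like brightness, behaved in the same way (1.01 log2 as deposited, 0.15 after quantile normalization). Obp19b, another odorant binding protein, was called higher with both scalings (2.03 and 1.90 log2). Of 39 respiratory chain and ATP synthase genes, COX5B was higher (0.96 log2, 0.71 and not called after quantile normalization) and the median was -0.18 log2. Of 26 proteasome genes 0 were called by limma (5 at an unadjusted p under 0.05), at a median of -0.19 log2.

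In 13 lists of embryonic patterning, tissues, germ line, sex and chromatin 10 of 192 genes were called (5.21%), beside 4.73% of all genes. Of 29 neuroblast and proneural genes 0 were higher and 3 were lower in yw: insc, the netrin receptor fra (196 and 209 on yw arrays, 613 to 980 on w1118 arrays, -1.83 log2) and SoxN, a Sox factor of the neural ectoderm (331 and 214 on yw arrays, 663 to 1144 on w1118 arrays, -1.66 log2). Their list median was -0.05 log2. Of 14 genes of trachea, salivary gland and epidermis, crb, an apical polarity protein (-1.78 log2), and rib, a BTB factor of tube formation (-0.90), were lower. Of 9 cellularization and gastrulation genes fog, the ligand for apical constriction, was lower (79 and 68.9 on yw arrays, 250 to 430 on w1118 arrays, -2.07 log2). The endoderm list held 1 lower call of 14, lin (-1.69 log2), and the amnioserosa list 1 higher call of 17, the dorsal homeobox gene zen (1.96 log2), which passed the filter only through yw. Sex determination and dosage compensation held 1 lower call of 17, da, a bHLH partner of the proneural factors (-1.17 log2), and chromatin genes 1 higher call of 24, the heterochromatin protein Su(var)3-7 (1.33 log2). By limma 0 genes were called among 26 maternal axis, 16 gap, 8 pair-rule, 13 segment polarity and Hox, 17 mesoderm and 14 germ line genes, where an unadjusted p under 0.05 was reached by 2, 1, 1, 3, 6 and 1 genes in that order. Their medians lay between -0.42 and 0.39 log2. After quantile normalization 1 pair-rule and 2 mesoderm genes were called lower.

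Hemocyte genes had the lowest median of the 32 lists, -0.72 log2, with 3 of 14 differences positive. LanA, the laminin alpha chain, was called lower (295 and 248 on yw arrays, 740 to 1244 on w1118 arrays, -1.70 log2). The other laminin chains LanB1 (-0.82 log2) and LanB2 (-1.07), the collagen gene Col4a1 (-1.18), SPARC (-1.21) and the factor srp (-0.93) did not pass. The summed signal of the list was 3338 to 4089 on yw arrays and 5235 to 7352 on w1118 arrays. For the 24 DNA repair genes the median was -0.49 log2 with 3 positive and 0 called by limma (6 at an unadjusted p under 0.05; 2 called lower after quantile normalization). For 41 cell cycle genes it was -0.32 log2 with 1 lower call, RnrL, the large subunit of ribonucleotide reductase (-1.41 log2). Of these lists, 9 of 14, 13 of 24 and 31 of 41 genes are read by probe sets of the 2 number ranges whose overall medians were -0.32 and -0.26 log2. Among lists with positive medians it was 4 of 13 immune, 9 of 18 cytochrome P450 and 4 of 28 ribosomal protein genes. Of all 8379 tested probe sets, 518 and 2886 lay in these 2 ranges. The other genes are read from the remaining ranges, which include the middle stretch with a median of 0.29 log2. The part of position in the numbering in any list median was not tested.

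Of 8 measured genes of eye and body pigment 0 were higher and 1 was lower in yw, cn, the kynurenine monooxygenase of the brown eye pigment pathway. The list median was -0.25 log2 (-0.55 after quantile normalization), and 3 of 8 reached an unadjusted p under 0.05. After quantile normalization these 3 were called lower: cn, ca (-1.73 log2 as deposited, limma adjusted p = 0.0606, and -2.15 after quantile normalization, 0.0315) and car (-1.32 log2, 0.113, and -1.71 after quantile normalization, 0.0494). cn (143103_at, 2R) read 97 and 150.7 on yw arrays, 81.8 to 160 on Dmp53NS arrays, and 613, 320, 468 and 734 on w1118 arrays. The w1118 arrays were above all others, and the yw minus w1118 difference was -1.95 log2 (SE 0.38, limma adjusted p = 0.0214).

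In the 4 marker lists of adult animals, gut and late stages 2 of 45 measured genes were called (4.44%, beside 4.73% of all genes), and 35 were positive (77.8%). The median of the mean signals of these 45 genes was 126.1. That lies in the second dimmest of the 5 groups by mean signal (97 to 178.6), where 56.4% were positive, beside 66.2% in the dimmest. The filter on the mean over all 10 arrays kept 6 of 16 ovary and chorion genes, 13 of 36 gut genes and 10 of 31 genes of adult males, so that the dimmer ones are not measured, and 7 of the 45 passed only through yw. The 6 ovary and chorion genes were positive, with a median of 0.83 log2 (0.71 after quantile normalization), and 0 were called by limma (2 at an unadjusted p under 0.05). Their summed signal was 1259 to 1400 on yw arrays and 689 to 792 on w1118 arrays. Of 13 gut genes 11 were positive, at a median of 0.61 log2 with 0 called by limma (6 at an unadjusted p under 0.05). Their summed signal was 2418 to 3140 on yw arrays and 1089 to 2368 on w1118 arrays. Of 10 genes of adult males and testis, Mst84Da, a sperm protein (174 and 163 on yw arrays, 16.6 to 50.4 on w1118 arrays, 2.19 log2), and bol, a meiotic RNA-binding protein (1651 and 1126 on yw arrays, 279 to 732 on w1118 arrays, 1.51 log2), were higher, at a list median of 0.53 log2. Mst84Da passed the filter only through yw. Their summed signal was 13278 to 16820 on yw arrays and 9335 to 12057 on w1118 arrays. The 16 late embryo and larval genes had a median of 0.19 log2 and 0 calls by limma (6 at an unadjusted p under 0.05). In the 2 number ranges with negative medians lay 0 of 6 ovary, 2 of 13 gut, 4 of 10 male and 2 of 16 late genes. These ranges held 518 and 2886 of all 8379 tested probe sets. The middle stretch of the numbering had a median of 0.29 log2, and the part of position was not tested. The 3 histone genes had a median of 0.51 log2 and 0 calls, also unadjusted, and the 13 apoptosis genes a median of -0.11 log2 and 0 calls (1 unadjusted). The part of these markers in the calls for other genes was not tested.

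**Figure D4:**
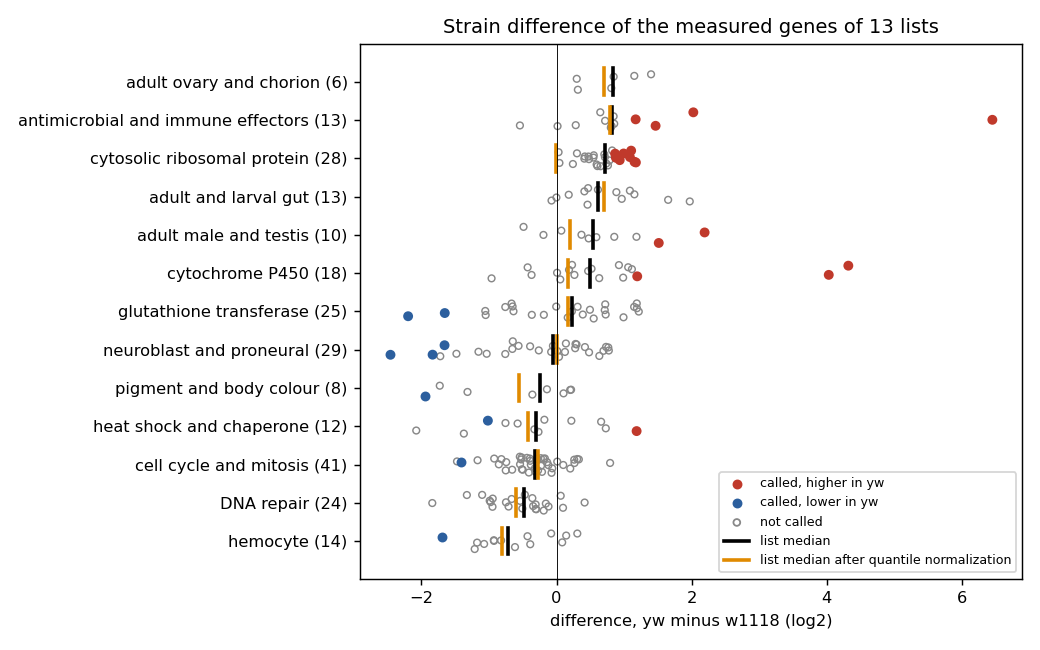
Each point is 1 measured gene of 13 of the 32 lists, with its yw minus w1118 difference (log2) on the horizontal axis and the number of measured genes in brackets. Red and blue points were called higher and lower in yw, black bars are list medians and orange bars the medians after quantile normalization. Drsl5 is the point at 6.45, the ribosomal protein median moves to -0.01 under quantile normalization, and the hemocyte median is the lowest.

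Agreement between probe sets of 1 gene was limited outside the run as well. Of 413 genes with at least 2 tested probe sets outside the run, 36 had a call at the brightest. In 24 of the 36 the second brightest had the same sign, and in 4 it was called with that sign. The median size was 1.57 log2 at the brightest and 0.36 log2 at the second, taken in the same direction. Set8 was called lower at both (-2.33 and -1.99 log2). For Traf4, a signalling adaptor, the 2 probe sets were called in opposite directions (-1.24 and 3.87 log2).

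Called genes were found on all large chromosome arms. On X 2.28% of measured genes were higher in yw and 2.03% were lower. The shares were 1.47% and 2.69% on 2L, 1.99% and 3.82% on 2R, 2.26% and 2.86% on 3L, and 1.43% and 2.68% on 3R, higher before lower. In gene order, 319 of 6809 measured genes were called. Among their 6803 pairs of neighbours both genes were called in 21, and 13 of these pairs had the same direction. How many such pairs the share of called genes alone would give was not computed. Besides Cyp4p2 and Cyp4p1, insc and sktl were both lower and CG9119 and LysB both higher. Pairs of opposite direction included VhaAC45 and Cyp4p2 (-1.54 and 4.32 log2), Cyp4p1 and Pkn (4.03 and -1.98), and elB and noc (1.41 and -2.24). The gene order is that of Release 6, which need not be the build behind the array.

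The strain difference was also taken within each treatment. Since both yw arrays lay outside the w1118 range at all 484 calls, the sign is the same in both treatments by construction. Within a treatment 1 yw array stood against 2 w1118 arrays, and the spread was taken from all arrays of the series. Only the sizes of these differences are therefore given here. Drsl5 differed by 6.72 log2 in irradiated and 6.18 log2 in control embryos, and Tektin-C by -3.70 and -3.12 log2. For Gr8a the differences were further apart, at 1.53 log2 in irradiated and 2.94 log2 in control embryos.

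Whether the strains responded differently to radiation was tested as the difference of the irradiation effects, each taken within a set and so within a day. With limma 73 of 8379 probe sets were called (0.871%), 34 with a higher effect in yw (0.406%) and 39 with a lower one (0.465%). At an unadjusted p under 0.05 there were 708, where 419 would be reached by chance. The count was 0 with median centring, with the wild-type arrays alone, with no replicate block, and without the second w1118 set or either Dmp53NS set (332 to 837 at an unadjusted p under 0.05). It was 6 without the first w1118 set. The irradiation effect itself was called at 253 probe sets in yw (3.02%), 127 higher (1.52%) and 126 lower (1.5%), and at 30 in w1118 (0.358%), 27 higher (0.322%) and 3 lower (0.0358%). The p-values of these tests rest on a spread shared by probe sets of like signal, not on that of each probe set. There is only 1 yw pair of arrays, so the yw effect has no replicate of its own. Its spread over probe sets (SD 0.752 log2) was wider than those of the w1118 sets (0.449 and 0.599), and in 69 of the 73 calls the yw effect was the larger in size.

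At most 10 genes with called differences were named, and 8 of these 10 had a lower irradiation effect in yw. Over all 73 calls, 39 were lower and 34 were higher. CG9467 read 28 and 359 on the irradiated and control yw arrays. On the w1118 arrays it read 634 and 524 in the first set and 409 and 314 in the second, irradiated before control. A single low yw array thus carried the difference of -3.45 log2 (SE 0.59, limma adjusted p = 5.44e-05). Myd88, the Toll pathway adaptor, read 24.5 and 202 on yw arrays, against 112 and 47.1 in the first and 107 and 96.7 in the second w1118 set, a difference of -3.05 log2 (SE 0.68, limma adjusted p = 0.00689). Mdr49, an ABC transporter gene, had an effect of -2.19 log2 in yw, against 1.60 and 1.53 log2 in the w1118 sets, a difference of -3.75 log2. SkpC, of the Skp1 family of ubiquitin ligase subunits, showed the same pattern, with -1.56 log2 in yw and 1.44 and 1.67 log2 in w1118, on a probe set that family members can share. MTPAP, a mitochondrial poly(A) polymerase, differed by -3.20 log2 and Dora by -3.06 log2. The difference of aqz (-2.31 log2) rests on a low control array of the second w1118 set (241, against 1544 in the first). Its effect was -0.48 log2 in yw and 0.40 and 3.27 log2 in the w1118 sets. Su(var)2-HP2, a partner of heterochromatin protein 1 (-3.26 log2), was low on the same w1118 array (12.1, against 133 in the first set). It was also low on the irradiated yw array (19.9, against 119 on the control). Its effect was -1.96 log2 in yw and 0.15 and 2.47 log2 in the w1118 sets. Cda4, a chitin deacetylase-like gene, and CG14985 had higher effects in yw, by 3.42 and 2.40 log2. The CG14985 probe set was the only one called in both tests.

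**Figure D5:**
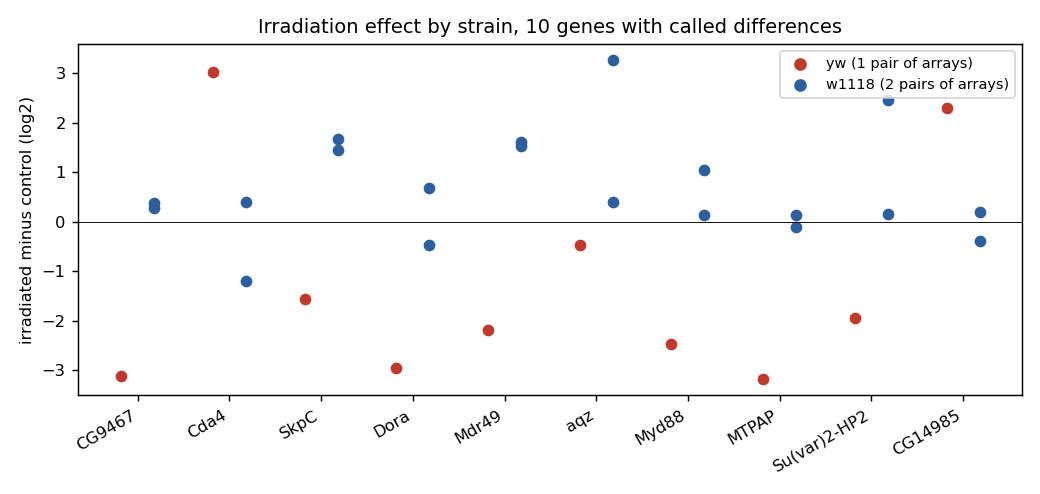
Irradiation effect (irradiated minus control, log2) of the 10 named genes, with the 1 yw pair of arrays in red and the 2 w1118 pairs in blue. The yw point is below both w1118 points for 8 genes and above both for Cda4 and CG14985; the w1118 points are wide apart for aqz and Su(var)2-HP2.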

How the data were processed

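Total RNA of whole embryos was hybridized to 1-colour arrays, 1 per collection. The deposited values are signal intensity per probe set on a linear scale, which the authors made with MAS5 (named in the submitters' processing notes; its version is not given in the sources used here). By the values themselves, each array was scaled to a trimmed mean (2% at each end) of 250.04. MAS5 subtracts mismatch signal, so low values are noisy. Run records gave the hybridization day, chip batch and fluidics protocol of each array.

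Values were analysed as log2(signal + 14.6), the 20th percentile, and probe sets above a mean signal of 53.36 (the 40th percentile) were kept. The number of arrays limits the precision. By the platform annotation 12443 probe sets carry 1 symbol, 327 several (not named) and 1196 none. Of these, 12394 matched the Release 6 gene table. The strain term was fitted to all 10 arrays with limma 3.58.1 (R 4.3.3, statmod 1.5.0; lmFit, eBayes with a trend), with strain and the irradiation effects of wild type and mutant, and each control and irradiated set as a random block (correlation 0.2, 5 residual and 5.72 prior degrees of freedom). The difference in irradiation effect used sets as a fixed block, with 2 residual degrees of freedom and an infinite prior, so its p-values rest on the variance trend over all probe sets and not on each one's own spread. Adjusted p-values are two-sided Benjamini-Hochberg values over all kept probe sets, with a threshold of 0.05. The pairing comes from the series' design text; deviations from the group means correlated within sets at 0.601 (w1118) and 0.428 (Dmp53NS). The sets are described as biological replicates. The fits were also run on simulated data, with no outcome given here. For the difference in irradiation effect the simulated spread was taken from the fit itself. That simulation therefore cannot show whether its p-values hold for these arrays. Named were the 20 largest each way of probe sets with 1 symbol, called with non-overlapping strains and the same sign after quantile normalization. Also named were up to 6 called members per list, y, w, ry and p53, and at most 10 genes for the irradiation difference. The lists, rules and comparison were chosen with earlier results of these data known. Alternatives covered scaling, pseudocount, filter, variance model, block and arrays left out. Genes with several probe sets are given by the brightest.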

Additional observations from a re-analysis of the deposited data

Results flagged for a closer look

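The fitted test of the difference between yw and w1118 in the irradiation effect called 73 probe sets. Of these, 10 named genes are given here, the most that the naming rule allowed. The values are log2 differences, the effect in yw minus that in w1118. They were -3.45 for CG9467, -3.75 for Mdr49, -3.26 for Su(var)2-HP2, -3.20 for MTPAP, -3.12 for SkpC, -3.06 for Dora, -3.05 for Myd88 and -2.31 for aqz. They were 3.42 for Cda4 and 2.40 for CG14985. All 10 lost the call under several alternatives, including the fit with the wild-type arrays alone, and the yw effect rests on 1 pair of arrays. The groups hold at most 2 arrays each, so no array was tested as an outlier within its group.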

How the results depend on the processing

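Of the 71 named genes called for the strain, 9 kept the call under every alternative that was run for them. They were chosen for non-overlapping strains and for the same sign after quantile normalization, so the direction under that scaling, in single treatments and with an array left out is fixed by the choice. Of 1609 values of the 71 genes under the alternatives, 1122 kept the call and 487 lost the call. The count of strain calls, 484 as reported, was 1750 without the filter, 266 with a stricter one, 231 with the wild-type arrays alone, 992 with no replicate block, 42 with control arrays only and 67 with irradiated arrays only. Leaving out an array or a set gave 43 to 488 calls. The lower of these were 43 without the yw irradiated and 60 without the yw control array, 246 without the second irradiated w1118 array, 112 higher and 93 lower without the second w1118 control array, 246 without the second w1118 set, and 241 and 180 without the first and second Dmp53NS set. Without the run of 302 probe sets, an alternative chosen after seeing the data, it was 326. The count for the irradiation effect, 73 as reported, was 119 with a pseudocount of 1, 26 with the stricter filter, 2 with no filter, and 0 by limma with median centring (634 at an unadjusted p under 0.05), with the wild-type arrays alone (826) and with no replicate block (332). It was 0 to 6 when a set was left out (356 to 837 at an unadjusted p under 0.05). The uncalled differences of y, ry and p53 changed sign. y was -0.27 with quantile normalization, -0.29 with median centring, -1.31 with control arrays only or without the yw irradiated array, -0.08 without the second w1118 set, and -0.12 and -0.11 without the first and second w1118 irradiated array. ry was -0.11, -0.18 and -0.22 with quantile normalization, median centring and control arrays only (-0.22 also without the yw irradiated array). p53 was -0.21 with median centring, -0.085 with control arrays only or without the yw irradiated array, and -0.05 without the second w1118 irradiated array. Without the yw control array they were 1.51 (y), 0.65 (ry) and 0.47 (p53). The causes were not tested.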
